A study of Mus musculus with 8 samples.

Results

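The Kruppel-like factor (KLF) genes Klf2, Klf3, Klf4, Klf5, Klf6, Klf9, Klf10 and Klf13 were followed in mouse embryonic stem cells that lack a component of Polycomb repressive complex 2 (PRC2), which silences developmental genes by methylating histone H3. All probe sets that the array's annotation assigns to these 8 symbols were taken, which gave 22 of the 22626 probe sets and 8 of the 12393 named genes tested. KLF proteins bind GC-rich and CACCC-type DNA through a conserved run of zinc fingers at their C-terminus, and their N-terminal parts recruit either coactivators or corepressors. KLF2, KLF4 and KLF5 are known in mouse embryonic stem cells as partly redundant activators of the self-renewal network. KLF4 is a known target of the cytokine LIF through STAT3. KLF3 is known as a repressor that binds the corepressor CtBP. KLF9, KLF10 and KLF13 bind the corepressor SIN3A, and KLF10 is also known as a TGF-beta-inducible early gene. KLF6 is a broadly expressed activator linked to growth control and the response to injury.

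The 4 groups were Jarid2-/-, Ezh2-/-, Eed-/- and wild type cells, with 2 arrays each and 8 arrays in all. The labels give the CJ7 line for every group, including the mutants, and name no other allele or agent. All cells were grown in serum with LIF and were otherwise untreated, and the labels do not say how many clones stand for a genotype. EZH2 is a catalytic subunit of PRC2, EED is a core subunit that binds the methylated histone, and JARID2 is an accessory subunit. Whether both arrays of a genotype had a culture of their own is not stated, and a p here therefore reflects array spread that may be technical. Each genotype is tied to its own derived cells, and their effects cannot be told apart. With 2 arrays per group the precision of each mean is low.

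Ezh2 signal averaged 696 ± 65.4 in Ezh2-/- and 4798 ± 282 in wild type, and Eed signal averaged 3611 ± 38.7 in Eed-/- and 10270 ± 856 in wild type (SD, n = 2 each). Ezh2 was also lower in the arrays labelled Jarid2-/-, at 3024 ± 138 (log2 -0.66, adjusted p = 0.0015). Jarid2 signal was not lower where Jarid2 was named as the mutated gene, with 9465 ± 1070 against 7954 ± 33.2 in wild type at its brightest probe set. The sources used here do not give the deleted part of Jarid2, so whether its probe sets can check the label is unknown, and the name "arrays labelled Jarid2-/-" is used for this group. Array medians lay between 322.9 and 351.5. The 24 probe sets for bacterial control RNAs read lower in 3 arrays: 61.9% and 60.8% of wild type replicate 1 in the arrays labelled Jarid2-/-, and 67.7% in wild type replicate 2. They read 85.6% to 101% in the Ezh2-/- and Eed-/- arrays, so the wild type pair was split on this measure. Negative control probe sets for a bacterial tryptophan gene read up to 147.9, and the dimmest Klf13 and Klf9 probe sets came near that level. Pou5f1 (14306, 17268, 14824 and 14284 in the arrays labelled Jarid2-/-, Ezh2-/-, Eed-/- and wild type) and Sox2 (16210, 15215, 15539 and 15051 in that order), defining genes of embryonic stem cells, were bright in every group.

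Against wild type, Klf4 and Klf5 were higher and Klf2 was lower in each of the mutants, at the brightest probe set of each gene. For the other members the calls varied: Klf3 was called lower in Ezh2-/- and Eed-/-, and Klf13 and Klf6 were called lower in Ezh2-/-. Klf6 in the arrays labelled Jarid2-/- was at log2 -0.53 (adjusted p = 0.058). It did not differ past the threshold between these arrays and Ezh2-/- (log2 0.11, adjusted p = 0.75). Klf9 and Klf10 passed the threshold in none of the mutants. A gene was called where limma's p, adjusted over all probe sets, was under 0.05. In the arrays labelled Jarid2-/- 2 of the 8 genes were higher (5.99% of all 12393 genes) and 1 was lower (14.2% of all genes), 3 in all, where 20.2% of all genes were called. In Ezh2-/- 2 were higher (9.67%) and 4 lower (17.9%), 6 in all, against 27.6%. In Eed-/- 2 were higher (7.88%) and 2 lower (11.1%), 4 in all, against 18.9%. All 8 genes were brighter than the median probe set, and among genes that were as bright as that 23.7%, 34.6% and 21.6% were called in the same order. The median log2 difference over the 8 genes was -0.07, -0.38 and 0.01, and over all genes it was -0.08, -0.08 and -0.06. The 3 comparisons share the wild type arrays, and the members were chosen with earlier results in view, so the counts describe these genes and are not a test of the family.

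Klf2, an activator of the self-renewal network known in endothelial cells as a target of ERK5 signalling, was read by 1 probe set (1448890_at). Its intensity was 8834 and 9171 in the arrays labelled Jarid2-/-, 4704 and 4519 in Ezh2-/-, 8374 and 8198 in Eed-/-, and 10707 and 12150 in wild type. Every mutant array lay below both wild type arrays, and the Ezh2-/- arrays lay below all others. Klf2 fell in Ezh2-/- to 4611 ± 131, against 11429 ± 1020 in wild type, which is 2.47-fold lower (log2 -1.30 with SE 0.07 and adjusted p = 3.4e-06). The decrease was 1.38-fold in Eed-/- (log2 -0.46, SE 0.07, adjusted p = 0.0024) and 1.27-fold in the arrays labelled Jarid2-/- (log2 -0.34, SE 0.07, adjusted p = 0.0072). All 3 calls held when any 1 of the 8 arrays was left out. Against wild type replicate 2 alone, the wild type array with the lower bacterial controls, the log2 difference was -0.43 in the arrays labelled Jarid2-/-, -1.39 in Ezh2-/- and -0.55 in Eed-/-. Against wild type replicate 1 alone it was smaller, at -0.25, -1.21 and -0.37 in the same order.

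Klf4, a target of LIF and STAT3 and one of the classic reprogramming factors, had 2 probe sets. At the brighter (1417394_at) its intensity was 6774 and 8622 in the arrays labelled Jarid2-/-, 5954 and 5797 in Ezh2-/-, 7301 and 8702 in Eed-/-, and 3848 and 4497 in wild type. No mutant array overlapped wild type, while the arrays labelled Jarid2-/- and the Eed-/- arrays overlapped each other and spread more than the Ezh2-/- pair. Klf4 rose 1.91-fold in Eed-/- (log2 0.94, SE 0.12, adjusted p = 0.0018) and 1.83-fold in the arrays labelled Jarid2-/- (log2 0.87, SE 0.12, adjusted p = 0.0018). In Ezh2-/- it rose 1.41-fold (log2 0.50, SE 0.12, adjusted p = 0.018), and this call ended without Ezh2-/- replicate 1 (0.48), Ezh2-/- replicate 2 (0.52) or wild type replicate 1 (0.38). The second probe set (1417395_at) gave log2 0.84, 0.52 and 0.87 in the arrays labelled Jarid2-/-, Ezh2-/- and Eed-/-, all past the threshold, and its Ezh2-/- call ended without the same 3 arrays (0.42 to 0.56). Without wild type replicate 1, Klf4 was at log2 0.76 in the arrays labelled Jarid2-/- and 0.82 in Eed-/-, both past the threshold.

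Klf5, known for roles in embryonic stem cell self-renewal and in the trophectoderm and inner cell mass of the blastocyst, had 2 probe sets. At the brighter (1451021_a_at) its intensity was 7300 and 8550 in the arrays labelled Jarid2-/-, 10343 and 10416 in Ezh2-/-, 6649 and 6640 in Eed-/-, and 4987 and 4748 in wild type. The 4 groups did not overlap, with Ezh2-/- highest and wild type lowest. Klf5 rose 2.13-fold in Ezh2-/- (log2 1.09, SE 0.07, adjusted p = 2.1e-05), 1.62-fold in the arrays labelled Jarid2-/- (log2 0.70 with adjusted p = 4.2e-04) and 1.36-fold in Eed-/- (log2 0.45, adjusted p = 0.0046). The dimmer probe set (1451739_at) read 981 and 1071, 1532 and 1551, 716 and 729, and 554 and 604 in the arrays labelled Jarid2-/-, Ezh2-/-, Eed-/- and wild type. It gave the same order of groups, with log2 0.81 for the arrays labelled Jarid2-/- and 1.39 for Ezh2-/- past the threshold, while 0.31 in Eed-/- did not pass (adjusted p = 0.053) but passed under 5 alternatives. Without wild type replicate 1 the bright probe set was at 0.73, 1.13 and 0.48 in the arrays labelled Jarid2-/-, Ezh2-/- and Eed-/-. Without wild type replicate 2 it was at 0.66, 1.06 and 0.41.

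**Figure D1:**
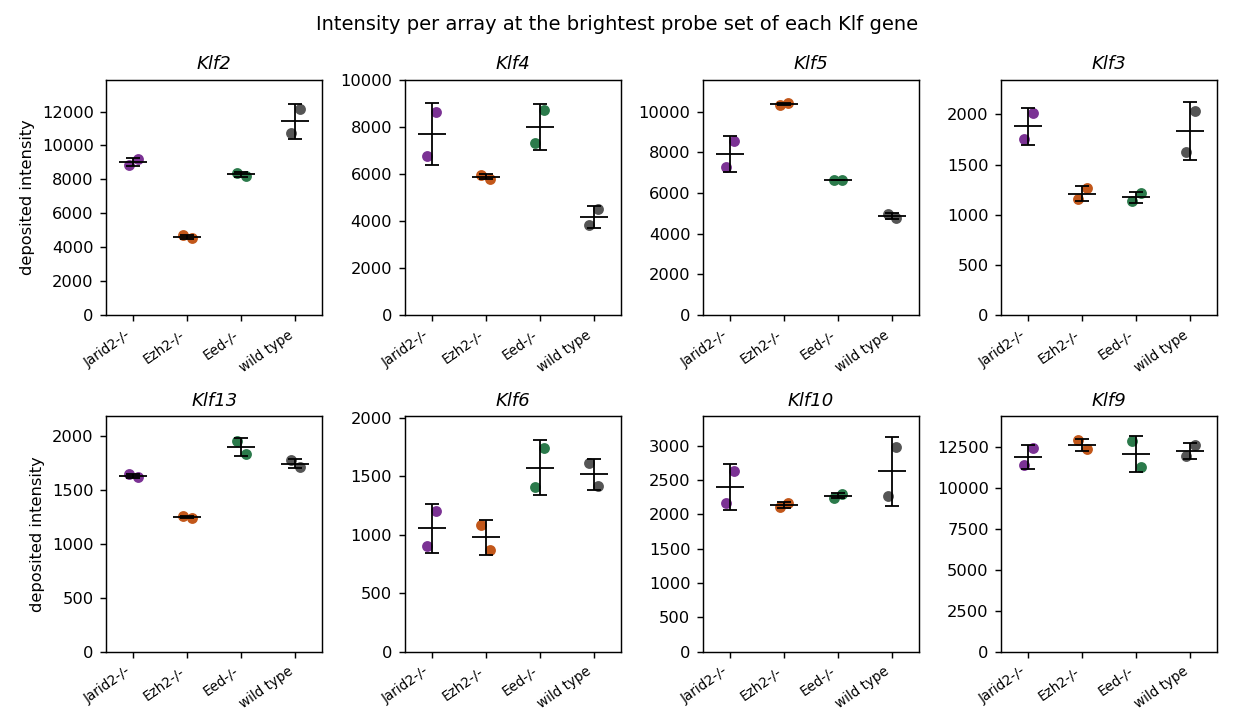
Deposited intensity (linear, from 0) per array at the brightest probe set of each of the 8 Klf genes in the arrays labelled Jarid2-/-, in Ezh2-/-, Eed-/- and wild type. Points are single arrays, horizontal bars are means and error bars are SD (n = 2). Klf2 is lowest in Ezh2-/- (4611) and highest in wild type (11429), Klf5 is highest in Ezh2-/- (10379) and lowest in wild type (4867), and the Klf9 groups overlap.

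The windows upstream of Klf2 and Klf4 are shown because these self-renewal factors went in opposite directions in each mutant. Both come from RefSeq (assembly GRCm38.p6), cover the 250 bases before the annotated start on the gene's strand, and carry GC boxes (GGGCGG, or CCGCCC for the other strand) and CACCC boxes (CACCC, or GGGTG for the other strand) in capitals. Klf2 lies at chr8:72318812-72319061 on the plus strand, and Klf4 at chr4:55532476-55532725 on the minus strand.
Klf2: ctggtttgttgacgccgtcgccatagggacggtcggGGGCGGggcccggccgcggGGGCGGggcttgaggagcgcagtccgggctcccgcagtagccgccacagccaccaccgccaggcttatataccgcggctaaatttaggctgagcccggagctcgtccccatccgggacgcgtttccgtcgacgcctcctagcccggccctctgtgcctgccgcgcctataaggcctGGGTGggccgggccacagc
Klf4: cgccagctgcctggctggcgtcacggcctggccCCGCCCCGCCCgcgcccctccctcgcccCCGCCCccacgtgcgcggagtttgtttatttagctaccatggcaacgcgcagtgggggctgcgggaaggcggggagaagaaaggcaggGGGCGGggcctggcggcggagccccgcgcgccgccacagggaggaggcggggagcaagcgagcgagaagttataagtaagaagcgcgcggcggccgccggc
The Klf2 window held 2 GC boxes and 1 CACCC box, and the Klf4 window held 4 GC boxes and 0 CACCC boxes, and no base was shared between motif kinds. Of all 32851 such windows 32.7% held a GC box and 52% a CACCC box, and 8.47% held 3 or more GC boxes. Both windows were dense in CpG, with 29 sites for Klf2 and 32 for Klf4 against a median of 6 over all windows. Of the 8 members 6 had a window in the table used. Klf3 had 6 GC boxes and 5 CACCC boxes, Klf13 had 3 and 1, Klf6 had 1 and 0, and Klf9 had 0 and 1, with 23, 24, 21 and 18 CpG sites. In the Klf3 and Klf13 windows 1 base was shared between a GC box and a CACCC box. The motif matches and CpG counts describe these windows only, and no binding was measured.

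Klf3, the CtBP-binding repressor, had 3 probe sets that differed in what they showed. The brightest (1431630_a_at) read 1751 and 2012 in the arrays labelled Jarid2-/-, 1155 and 1267 in Ezh2-/-, 1135 and 1213 in Eed-/-, and 1629 and 2037 in wild type. The Ezh2-/- and Eed-/- arrays lay below the other 4, and the arrays labelled Jarid2-/- lay within the wild type range. It fell 1.5-fold in Ezh2-/- (log2 -0.58, SE 0.13, adjusted p = 0.0095) and 1.55-fold in Eed-/- (log2 -0.63, SE 0.13, adjusted p = 0.011). The first call ended without Ezh2-/- replicate 1 (-0.52) and the second without Eed-/- replicate 1 (-0.58). A second probe set (1421604_a_at) was lower in Ezh2-/- (log2 -0.35, adjusted p = 0.028), which lost its call under quantile normalization (-0.29), with equal array medians (-0.27) and without either Ezh2-/- array or wild type replicate 2 (-0.36 to -0.31). It was at log2 -0.30 in Eed-/- (adjusted p = 0.067). The last (1429360_at) was between 0.02 and 0.08 in all mutants, so the decrease of Klf3 was not shared by all of its probe sets.

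Klf13, a SIN3A-binding factor known for a role in T lymphocytes, had 3 probe sets. The brightest (1436316_at) read 1644 and 1615 in the arrays labelled Jarid2-/-, 1256 and 1240 in Ezh2-/-, 1957 and 1836 in Eed-/-, and 1774 and 1714 in wild type. The Ezh2-/- arrays lay below the other 6. Klf13 fell 1.39-fold in Ezh2-/- (log2 -0.48, SE 0.08, adjusted p = 0.0037), and its second probe set (1432543_a_at) gave log2 -0.60 (SE 0.09, adjusted p = 0.002). Both calls held when any 1 array was left out. At the brightest probe set the differences were -0.10 (95% interval -0.29 to 0.09) in the arrays labelled Jarid2-/- and 0.12 (-0.07 to 0.31) in Eed-/-, neither past the threshold. The second probe set had the opposite sign in both, at 0.15 (adjusted p = 0.31) and -0.05 (adjusted p = 0.76). The last probe set (1456030_at) was dim, at 130 to 184 over the 8 arrays, and passed in no comparison.

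Klf6, the growth-control and injury-response factor, had 3 probe sets. The brightest (1427742_a_at) read 907 and 1204 in the arrays labelled Jarid2-/-, 1085 and 868 in Ezh2-/-, 1406 and 1743 in Eed-/-, and 1611 and 1420 in wild type. The Eed-/- and wild type arrays overlapped and lay above the other 4. Klf6 fell 1.55-fold in Ezh2-/- (log2 -0.63, SE 0.17, adjusted p = 0.024), which lost its call without Ezh2-/- replicate 2 (-0.47) or wild type replicate 1 (-0.54). It was at log2 -0.53 in the arrays labelled Jarid2-/- (95% interval -0.91 to -0.14, adjusted p = 0.058), and passed without Jarid2-/- replicate 2 (-0.73). The second probe set (1433508_at) was lower in Ezh2-/- (log2 -0.71, adjusted p = 0.013) and in the arrays labelled Jarid2-/- (log2 -0.60 with adjusted p = 0.034). The first of these ended without either Ezh2-/- array (-0.72 and -0.70) or wild type replicate 1 (-0.58). The second ended without Jarid2-/- replicate 1 (-0.41), wild type replicate 1 (-0.47) or either Ezh2-/- array (-0.60 each), without an intensity trend and in a fit of the 4 arrays alone (-0.60 each). The dimmest probe set (1418280_at) did not pass in any mutant against wild type, and passed at -0.75 in the arrays labelled Jarid2-/- and -0.70 in Ezh2-/- without wild type replicate 2.

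Fibroblasts express Klf6 and Klf4, and markers of fibroblasts or feeder cells moved in these arrays. Marker counts are to be read against the 20.2%, 27.6% and 18.9% of all genes called in the arrays labelled Jarid2-/-, Ezh2-/- and Eed-/-. Of 14 fibroblast or feeder markers measured, 9 were lower in the arrays labelled Jarid2-/-, 10 in Ezh2-/- and 5 in Eed-/-, or 64.3%, 71.4% and 35.7%, and 0 were higher. Their median log2 difference was -1.04, -1.04 and -0.45. Their summed intensity was 17334 to 19412 in the arrays labelled Jarid2-/-, 16539 to 16957 in Ezh2-/-, 23198 to 31281 in Eed-/- and 37688 to 41691 in wild type. The markers Col3a1, Postn, Lum and Dcn read no higher than the brightest negative control in every group. Trophectoderm markers, 11 in number, summed to 6670 to 8293, 4234 to 5242, 12695 to 24718 and 21332 to 28897 in the same order, with Elf5 no brighter than that control in every group. Of these 0 were higher and 3 lower in the arrays labelled Jarid2-/-, 0 and 4 in Ezh2-/-, and 3 and 1 in Eed-/-, or 27.3%, 36.4% and 36.4%. Their median log2 was -0.24, -0.23 and -0.05. Krt8, Krt18 and Krt19 made up much of the wild type sum, at 10021, 6544 and 3423. Primitive and visceral endoderm markers, 15 in number, summed to 16159 to 18301, 23889 to 24325, 16839 to 17509 and 12688 to 14808, with Afp as dim as the controls. Of them 4 were higher and 5 lower in the arrays labelled Jarid2-/-, 4 and 5 in Ezh2-/-, and 9 and 1 in Eed-/-, or 60%, 60% and 66.7%. Their median log2 was -0.05, -0.06 and 0.50. Neural markers, 10 in number, summed to 8967 to 9781, 4875 to 5038, 8951 to 8991 and 3399 to 3862, with Map2 and Neurog2 as dim as the controls. Of them 2 were higher and 1 lower in the arrays labelled Jarid2-/-, 3 and 2 in Ezh2-/-, and 3 and 0 in Eed-/-, or 30%, 50% and 30%. Their median log2 was 0.02, -0.03 and 0.02. Olig1 and Olig2 made up much of the neural sums in the mutants, at 4565 and 1832 in the arrays labelled Jarid2-/-, 1684 and 971 in Ezh2-/-, 3903 and 1361 in Eed-/-, and 79 and 30 in wild type. The part of any marker list in the Klf values was not tested. Fewer cells of a type and less RNA per cell cannot be told apart in these bulk samples.

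Klf10, the TGF-beta-inducible early gene, was read by 1 probe set (1416029_at), at 2167 and 2636 in the arrays labelled Jarid2-/-, 2104 and 2172 in Ezh2-/-, 2246 and 2297 in Eed-/-, and 2275 and 2976 in wild type. The Ezh2-/- arrays lay below both wild type arrays, and the other mutants overlapped wild type. The differences were log2 -0.12 (95% interval -0.43 to 0.18), -0.28 (-0.59 to 0.02) and -0.19 (-0.50 to 0.11) in the arrays labelled Jarid2-/-, Ezh2-/- and Eed-/-. Without wild type replicate 1 the Ezh2-/- difference was -0.47 and passed the threshold.

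Klf9, a factor induced by thyroid hormone and glucocorticoids in other tissues, had 7 probe sets, and no probe set passed in any of the 6 comparisons. The brightest (1456341_a_at) read 11393 and 12416 in the arrays labelled Jarid2-/-, 12911 and 12394 in Ezh2-/-, 12863 and 11274 in Eed-/-, and 11936 and 12630 in wild type, so the groups overlapped. Its differences from wild type had narrow intervals: -0.20 to 0.11, -0.11 to 0.20 and -0.18 to 0.13. The next probe sets, 1428289_at and 1428288_at, gave log2 values of 0 to 0.07 in the mutants. The widest departure was log2 -0.37 in Eed-/- at a dim probe set (1436952_at, 95% interval -0.68 to -0.07, adjusted p = 0.088).

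**Figure D2:**
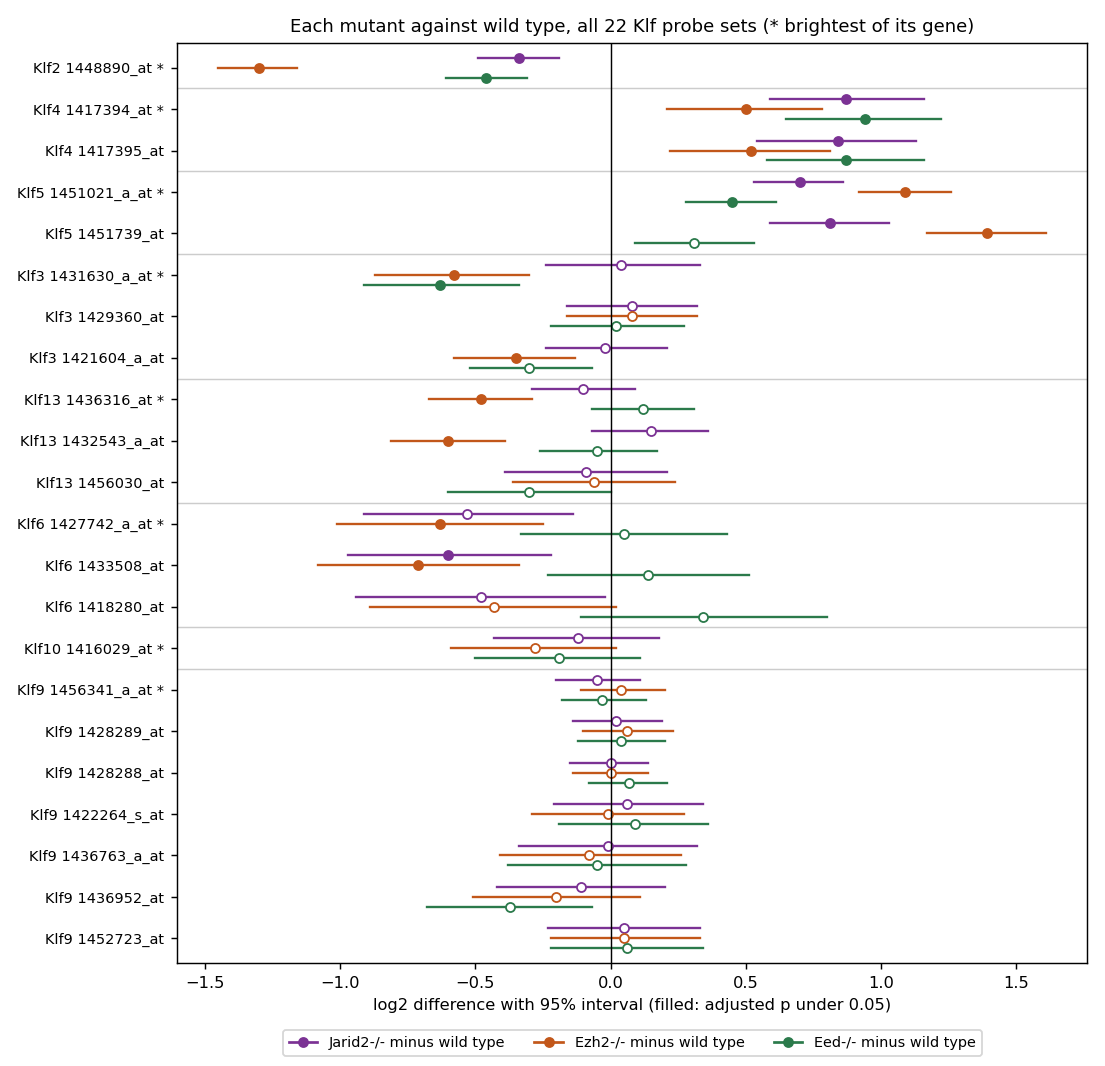
Log2 difference from wild type (log2 of intensity + 16) with its 95% interval for all 22 Klf probe sets, in the arrays labelled Jarid2-/-, in Ezh2-/- and in Eed-/-. Filled points passed an adjusted p of 0.05, and a star marks the brightest probe set of a gene. Klf2 lies left of 0 and Klf4 and Klf5 right of 0 in all mutants, with Klf2 at -1.30 and Klf5 at 1.09 in Ezh2-/-.

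The mutants were then compared with each other, which tests directly whether a Klf gene differed between them. In the arrays labelled Jarid2-/- against Ezh2-/-, 4 of the 8 genes were called, where 16% of all genes were. In the arrays labelled Jarid2-/- against Eed-/- 1 was called (15.7% of all genes), and in Ezh2-/- against Eed-/- 5 were called (18.1% of all genes). The first count was 2 without Jarid2-/- replicate 2 and 1 without either Ezh2-/- array, settings under which calls over all probe sets also dropped, to 6.82%, 5.38% and 4.97%, against 15% with all arrays. The second rose to 2 or 3 under 6 processing alternatives. Under these 14.9% to 21.2% of all probe sets were called (15.6% of all genes with the mean of probe sets), against 14.9% in the main fit. The second count also rose without Jarid2-/- replicate 1, where the share of all probe sets called fell. It rose without either wild type array too, where that share rose as well. The last count dropped without Ezh2-/- replicate 1, Ezh2-/- replicate 2 or Eed-/- replicate 2. Over all probe sets 7.03%, 6.07% and 7.21% were then called in the last comparison, against 16.8% with all arrays.

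Klf2 was 1.79-fold lower in Ezh2-/- than in Eed-/- (log2 -0.84, SE 0.07, adjusted p = 6.4e-05). It was 1.95-fold higher in the arrays labelled Jarid2-/- than in Ezh2-/- (log2 0.96, SE 0.07, adjusted p = 5.6e-05). The arrays labelled Jarid2-/- and Eed-/- differed by log2 0.12 (95% interval -0.03 to 0.27), so the order was wild type highest, then this pair with no difference past the threshold, then Ezh2-/-. Klf5 was 1.56-fold higher in Ezh2-/- than in Eed-/- (log2 0.64, adjusted p = 5.3e-04). It was lower in the arrays labelled Jarid2-/- than in Ezh2-/- (log2 -0.39, adjusted p = 0.0076), which lost its call without Ezh2-/- replicate 1 (-0.40) or Ezh2-/- replicate 2 (-0.39). The arrays labelled Jarid2-/- exceeded Eed-/- by log2 0.25 at the brighter probe set (adjusted p = 0.052) and by 0.50 at the dimmer probe set (adjusted p = 0.0095). The dimmer probe set's call ended without Jarid2-/- replicate 2 (0.43) or either Eed-/- array (0.48 and 0.51).

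Klf4 was lower in Ezh2-/- than in Eed-/- at the bright probe set (log2 -0.44, SE 0.12, adjusted p = 0.042), and the second probe set gave -0.35 (adjusted p = 0.10). The call ended with equal array medians (-0.35), without an intensity trend (-0.44) and without Ezh2-/- replicate 1 (-0.46), Ezh2-/- replicate 2 (-0.42) or Eed-/- replicate 2 (-0.31). The arrays labelled Jarid2-/- and Eed-/- differed in Klf4 by log2 -0.06 (95% interval -0.34 to 0.22). Klf3 at its brightest probe set was higher in the arrays labelled Jarid2-/- than in Ezh2-/- (log2 0.63, adjusted p = 0.011) and than in Eed-/- (log2 0.67, adjusted p = 0.0079). The first of these ended without Jarid2-/- replicate 2 (0.53) or either Ezh2-/- array (0.56 and 0.69), and the second without Jarid2-/- replicate 2 (0.57). At 1421604_a_at the values were 0.34 (adjusted p = 0.05, rounded), a call lost under 7 alternatives, and 0.28 (adjusted p = 0.095, not past the threshold). At 1429360_at they were 0 and 0.05, neither past the threshold, so these Klf3 differences were not shared by all of its probe sets.

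Klf13 was lower in Ezh2-/- than in Eed-/- (log2 -0.60, SE 0.08, adjusted p = 0.0017) and higher in the arrays labelled Jarid2-/- than in Ezh2-/- (log2 0.38, adjusted p = 0.017, and 0.75 with adjusted p = 0.0011 at the second probe set). The value of 0.38 lost its call without any of the 4 arrays compared (0.37 to 0.39), while 0.75 kept its call. Klf6 was lower in Ezh2-/- than in Eed-/- at all 3 probe sets (log2 -0.68, -0.85 and -0.77, adjusted p = 0.025, 0.0083 and 0.03), and each call ended without Ezh2-/- replicate 1, Ezh2-/- replicate 2 or Eed-/- replicate 2 (-0.90 to -0.52), and the value of -0.77 also under quantile normalization (-0.66). Between the arrays labelled Jarid2-/- and Ezh2-/- no Klf6 probe set passed (log2 0.11, 0.11 and -0.05, adjusted p = 0.75, 0.72 and 0.91). In the arrays labelled Jarid2-/- Klf6 was at -0.58, -0.74 and -0.82 against Eed-/-, of which -0.74 and -0.82 passed (adjusted p = 0.017 and 0.026). Both calls ended without Jarid2-/- replicate 1 (-0.55 and -0.74) or Eed-/- replicate 2 (-0.54 and -0.60), and that of -0.82 also without Jarid2-/- replicate 2 (-0.91).

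**Figure D3:**
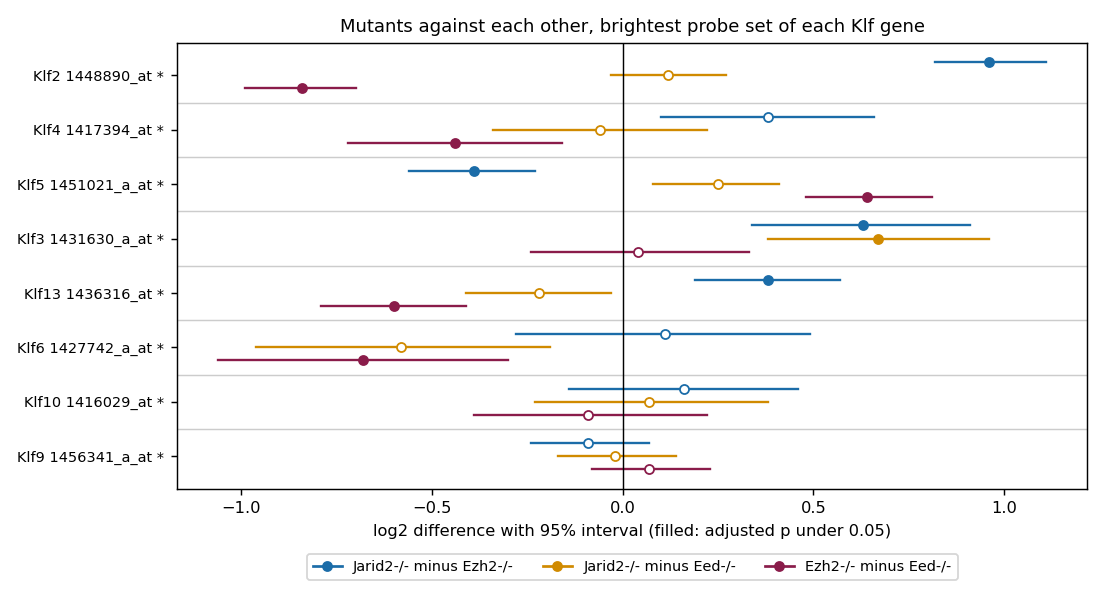
Log2 difference between mutants with its 95% interval at the brightest probe set of each Klf gene: Jarid2-/- minus Ezh2-/-, Jarid2-/- minus Eed-/- and Ezh2-/- minus Eed-/-. Filled points passed an adjusted p of 0.05. Klf2 shows the widest separation of Ezh2-/- from the other mutants (0.96 and -0.84), and only Klf3 is filled for Jarid2-/- minus Eed-/- (0.67).

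Other members of the Kruppel-like and related Sp families were read on the array too, and 12 of 18 listed genes had a probe set with a single symbol. In the arrays labelled Jarid2-/- 0 were higher and 4 lower, in Ezh2-/- 1 was higher and 4 lower, and in Eed-/- 0 were higher and 2 lower. That is 33.3%, 41.7% and 16.7% called, where 20.2%, 27.6% and 18.9% of all genes were, so the Eed-/- share was below that of all genes. Their median log2 difference was -0.20, -0.20 and -0.16 in that order.

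Klf7, a factor known from neurons, read 609 and 650 in the arrays labelled Jarid2-/-, 751 and 705 in Ezh2-/-, 1000 and 899 in Eed-/-, and 1102 and 1236 in wild type at its brightest probe set. All mutant arrays lay below wild type. Klf7 fell in the arrays labelled Jarid2-/- (log2 -0.88, SE 0.11, adjusted p = 9.0e-04) and in Ezh2-/- (log2 -0.67, SE 0.11, adjusted p = 0.0022), and it was at -0.30 in Eed-/- (adjusted p = 0.085). Its 4 probe sets gave -1.04 to -0.77 in the arrays labelled Jarid2-/-, all past the threshold. In Ezh2-/- they gave -0.71 to -0.25, and the value of -0.25 did not pass (adjusted p = 0.13). Of the others, -0.71 lost its call without Ezh2-/- replicate 2 (-0.52), and -0.46 without Ezh2-/- replicate 2 (-0.37) or wild type replicate 1 (-0.40).

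Sp5, a target of Wnt signalling in the early embryo, read 68.7 and 72.6 in the arrays labelled Jarid2-/-, 92.1 and 107.1 in Ezh2-/-, 217.2 and 246.7 in Eed-/-, and 1029 and 391.5 in wild type. Both the arrays labelled Jarid2-/- and the Ezh2-/- arrays were no brighter than the brightest negative control, so their log2 differences of -2.91 and -2.50 are not exact, and the wild type arrays differed widely. In Eed-/- Sp5 was lower (log2 -1.40, adjusted p = 0.022), at -0.72 without wild type replicate 1, and the call ended without Eed-/- replicate 1 (-1.31) or Eed-/- replicate 2 (-1.48) and in a fit of the 4 arrays alone (-1.40). Klf15, known for metabolic roles in muscle and liver, was lower in the arrays labelled Jarid2-/- (290 ± 82.1 against 855 ± 245 in wild type, log2 -1.50 with SE 0.27 and adjusted p = 0.005). Its decrease in Eed-/- (log2 -0.90, adjusted p = 0.046) ended without either Ezh2-/- array (-0.90), Eed-/- replicate 1 (-0.55) or wild type replicate 2 (-0.60) and under 4 processing alternatives. Sp1, a broadly expressed activator that binds GC boxes, was lower in the arrays labelled Jarid2-/- (log2 -0.32 with SE 0.07, adjusted p = 0.012), which lost its call without Jarid2-/- replicate 1 (-0.24) and in a fit of the 4 arrays alone (-0.32).

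**Figure D4:**
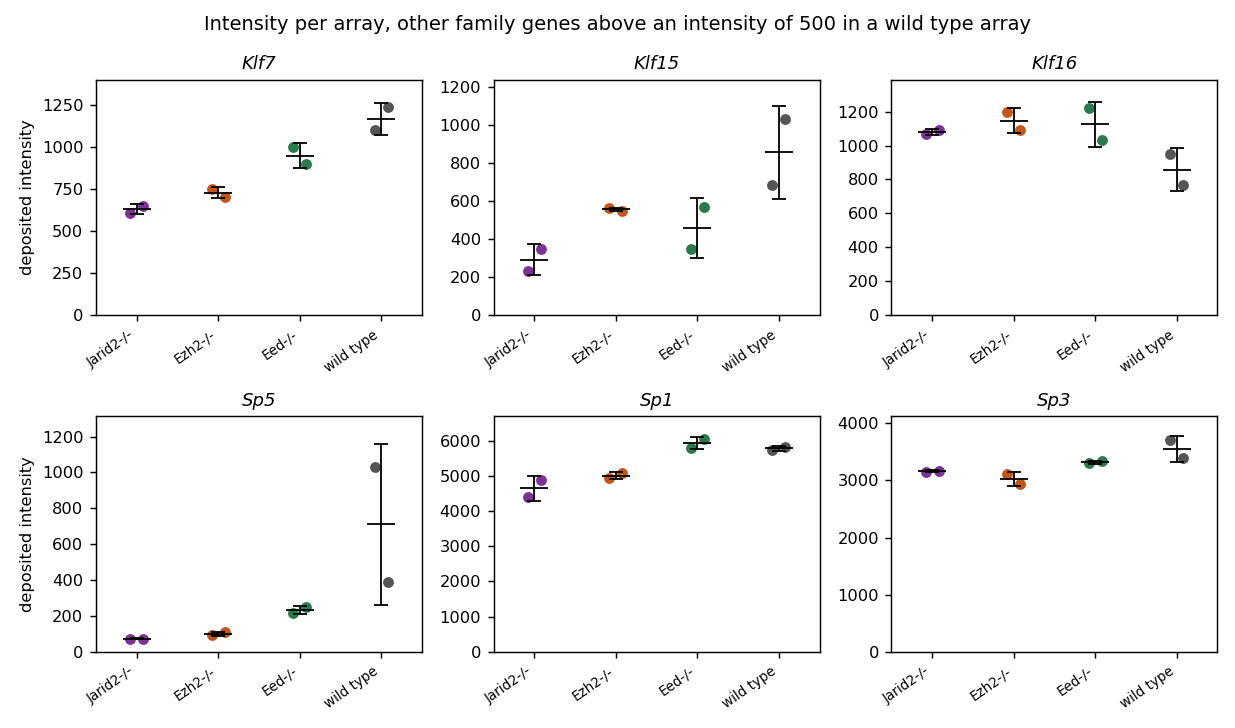
Deposited intensity (linear, from 0) per array for 6 other Kruppel-like and Sp genes at their brightest probe set, in the arrays labelled Jarid2-/-, in Ezh2-/-, Eed-/- and wild type. Points are single arrays, horizontal bars are means and error bars are SD (n = 2). Klf7 lies lower in every mutant array than in wild type, and the wild type arrays of Sp5 are far apart (1029 and 391.5).

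Genes that act with the Klf factors were counted from fixed lists by their brightest probe sets, to be read against the 20.2%, 27.6% and 18.9% of all genes called in the arrays labelled Jarid2-/-, Ezh2-/- and Eed-/-. Of 12 genes of the LIF and STAT3 pathway, which induces Klf4, 0 were higher and 3 lower in the arrays labelled Jarid2-/-, 1 higher and 2 lower in Ezh2-/-, and 1 higher and 1 lower in Eed-/-. These shares of 25%, 25% and 16.7% were close to those of all genes. Lif itself was lower in each mutant (log2 -0.53, -0.73 and -0.69), with means of 169, 145 and 149 against 252 in wild type. The mutant means lay near the brightest negative control (147.9), so these log2 differences are not exact. The first of the 3 calls ended without either Jarid2-/- array (-0.52 and -0.53) or wild type replicate 1 (-0.38). Bcl3, a STAT3 target, rose in Ezh2-/- (1623 ± 110 against 948 ± 57.9 in wild type, log2 0.77, adjusted p = 0.0013). Bcl3 was lower instead in the arrays labelled Jarid2-/-, at 737 ± 69.3, with a log2 difference of -0.36 (adjusted p = 0.049), a call lost under 11 alternatives.

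Among 15 pluripotency factors other than Klf genes, 5 were higher and 2 lower in the arrays labelled Jarid2-/-, 6 higher and 3 lower in Ezh2-/-, and 2 higher and 0 lower in Eed-/-, or 46.7%, 60% and 13.3%. Tbx3, a transcription factor of naive stem cells, was higher in all mutants (log2 0.84, 0.80 and 1.14, each with SE 0.10). Zfp42, the stem cell marker REX1, was at 3504 ± 313 in the arrays labelled Jarid2-/-, 3851 ± 195 in Ezh2-/-, 17960 ± 990 in Eed-/- and 18380 ± 532 in wild type. Nanog and Esrrb did not pass in any mutant, with log2 values of 0.05, -0.19 and 0.29 for Nanog and 0.47, 0.17 and 0.24 for Esrrb.

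Of 15 genes of the FGF, ERK and ERK5 pathway, 4 were higher and 3 lower in the arrays labelled Jarid2-/-, 5 higher and 2 lower in Ezh2-/-, and 1 higher and 1 lower in Eed-/-, or 46.7%, 46.7% and 13.3%. The receptor Fgfr1 was lower in each mutant (log2 -0.68, -1.21 and -0.54), and its Eed-/- call was lost under 6 alternatives. Spry2, a feedback inhibitor of this pathway, rose in Ezh2-/- (log2 0.88, SE 0.07, adjusted p = 4.8e-05), as did the ETS factor Etv4 (log2 1.20, SE 0.11, adjusted p = 1.5e-04). The TGF-beta and SMAD list, which bears on Klf10, had 2 higher and 7 lower of 16 in the arrays labelled Jarid2-/-, 2 and 6 in Ezh2-/-, and 3 and 2 in Eed-/-, or 56.2%, 50% and 31.2%. Id1 and Id3, SMAD-responsive inhibitors of differentiation, fell in the arrays labelled Jarid2-/- (log2 -1.13 and -1.57), and the inhibitor Smad7 rose in Ezh2-/- (log2 0.69) and Eed-/- (log2 1.12).

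Of 13 partners and turnover factors of KLF proteins, 1 was higher and 2 lower in the arrays labelled Jarid2-/-, 5 higher and 3 lower in Ezh2-/-, and 3 higher and 2 lower in Eed-/-, or 23.1%, 61.5% and 38.5%. Sin3b, a SIN3 corepressor scaffold, fell in each (log2 -0.43, -0.86 and -0.53, adjusted p = 0.0037, 6.8e-05 and 0.0018). Ctbp2, the corepressor bound by KLF3, rose in Ezh2-/- (log2 0.34, SE 0.05, adjusted p = 0.0022). Of 15 immediate early genes, a class that shares serum and stress induction with Klf2, Klf4, Klf6 and Klf10, 1 was higher and 1 lower in the arrays labelled Jarid2-/-, 1 higher and 4 lower in Ezh2-/-, and 0 higher and 2 lower in Eed-/-, or 13.3%, 33.3% and 13.3%. Egr1 fell in Ezh2-/- (859 ± 349 against 2065 ± 178 in wild type, log2 -1.31, adjusted p = 0.01), which lost its call without Ezh2-/- replicate 2 (-0.89). Ier2 fell in Eed-/- (log2 -0.77, SE 0.08, adjusted p = 7.0e-04).

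**Figure D5:**
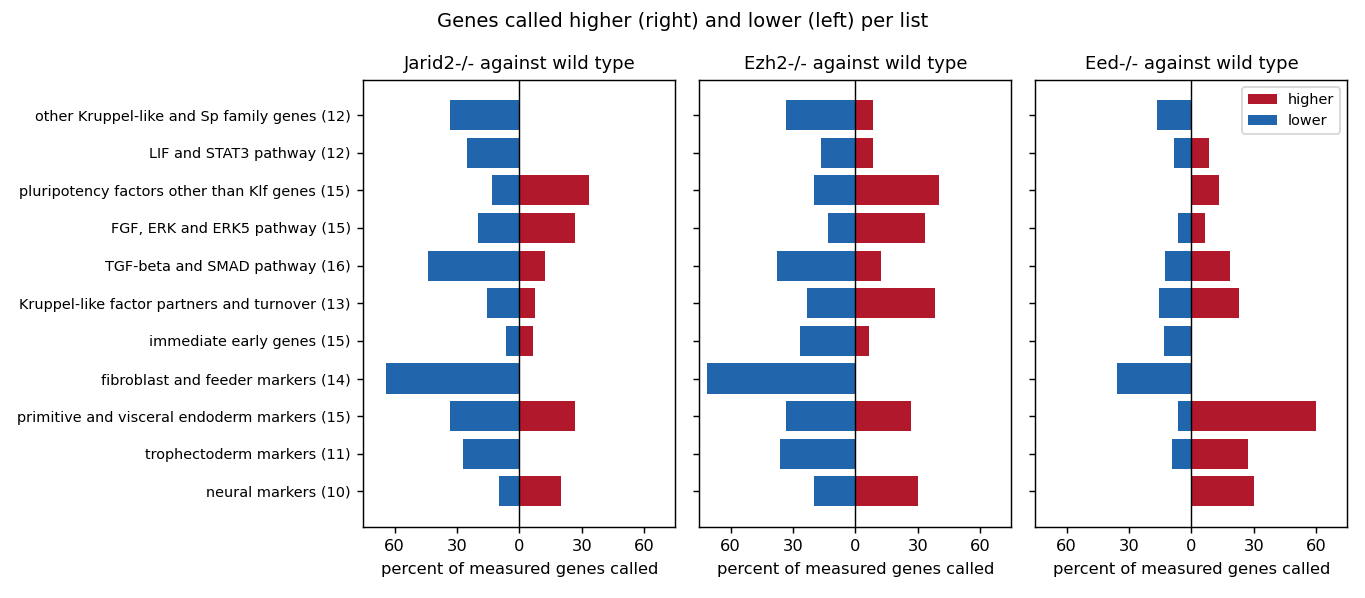
Percent of the measured genes of each list (number in brackets) called higher (right) or lower (left) than wild type at an adjusted p under 0.05, in the arrays labelled Jarid2-/-, in Ezh2-/- and in Eed-/-. Fibroblast and feeder markers reach furthest to the left (9, 10 and 5 of 14 lower). Of all genes 14.2%, 17.9% and 11.1% were lower in the same order.

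Klf2 and Klf5 were the members whose group means spanned at least 1 on the log2 scale. Over the 6 mutant arrays, the genes with the smallest root mean square difference from Klf2 in their log2 deviations from the wild type mean were Siah1a (0.12), Sema3e (0.13) and Pls3 (0.14), among 6834 other genes brighter than the median probe set. Their log2 differences were -0.14, -0.45 and -0.18 in the arrays labelled Jarid2-/- (Klf2 -0.34), -1.27, -1.21 and -1.25 in Ezh2-/- (Klf2 -1.30), and -0.46, -0.41 and -0.53 in Eed-/- (Klf2 -0.46). The match was looser in the arrays labelled Jarid2-/-. For Klf5 the nearest were Plod1 (0.07), Slc9a3r1 (0.11) and Dock9 (0.12), with log2 0.61, 0.72 and 0.59 in the arrays labelled Jarid2-/- (Klf5 0.70), 1.04, 1.05 and 0.95 in Ezh2-/- (Klf5 1.09), and 0.51, 0.51 and 0.36 in Eed-/- (Klf5 0.45). The arrays of a group share their cells, and the likeness is a description of these arrays.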

How the data were processed

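Total RNA was read on Affymetrix 3-prime expression arrays after biotin labelling, per the labels' protocols. The authors deposited a linear intensity for each probe set and array. How these were summarised and normalized is not stated in the sources used here. A separate dChip signal table was left out, because the names of its 12 columns match no sample label. After the 64 control probe sets were removed, intensities under 1 were raised to 1, and log2(intensity + 16) was computed with no other scaling or filter, so a fold of a dim gene is understated. For the 22626 probe sets, limma 3.58.1 (R 4.3.3) estimated 1 mean per genotype across the 8 arrays, using lmFit and eBayes with trend, and gave two-sided p-values with Benjamini-Hochberg adjustment across probe sets. Intervals are 95% and on the same log2 scale. By the platform annotation 20380 probe sets had 1 symbol, 691 several and 1555 none, and the brightest probe set stood for each of 12393 genes. The code was tested on simulated data. Members and the 11 gene lists were chosen with earlier results of these data known. Beside all Klf probe sets, the rule named the targeted genes, up to 3 called genes with the smallest p per list and mutant, and the 3 genes nearest in pattern to each member that spans at least 1 on the log2 scale. Not all list genes named by the rule are printed. Pou5f1, Sox2, Nanog, Esrrb, Sp1 and the dim markers were named after their values were seen. Alternatives covered scaling, pseudocount, a dim filter, variance options, replicate block, gene summary and single arrays left out.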

Additional observations from a re-analysis of the deposited data

How the results depend on the processing

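The alternatives were quantile normalization, equal array medians, a pseudocount of 1 or 64, leaving out probe sets dimmer than 200 in all groups, no intensity trend, a robust variance, the replicate number as a block, a fit of the 4 arrays compared, the mean over a gene's probe sets, and leaving out each array. Of 2232 probe set values under these, 67 lost and 35 gained a call, and no called value changed direction. The number of Klf genes called against wild type was 3 to 4 (arrays labelled Jarid2-/-), 4 to 6 (Ezh2-/-) and 3 to 4 (Eed-/-) with 1 array left out. Between mutants it was 1 to 4 (Jarid2-/- minus Ezh2-/-), 1 to 3 (Jarid2-/- minus Eed-/-) and 3 to 5 (Ezh2-/- minus Eed-/-). In every comparison, leaving out an array of either group compared also lowered the share of all probe sets called. With all arrays that share was 19.8%, 26.6% and 18.6% against wild type, and 15%, 14.9% and 16.8% between mutants, in the same order. For Jarid2-/- minus Eed-/- the main count of 1 became 2 under quantile normalization, equal array medians and robust variance, and 3 without dim probe sets, with the mean of probe sets and with the replicate block. Klf3 was among the genes each time, with Klf5, Klf6 or both added, and the cause was not tested. Calls over all probe sets, 14.9% before, were 14.9%, 16.1%, 15%, 21.2% and 19.1% under quantile normalization, equal medians, robust variance, no dim probe sets and the block. With the mean of probe sets 15.6% of all genes were called, against 15.7% by the brightest probe set. Without Jarid2-/- replicate 2 the count stayed at 1, but the gene was Klf6. Replicate deviations correlated by 0.411 between the arrays labelled Jarid2-/- and wild type. The correlation was 0.244 between the arrays labelled Jarid2-/- and Eed-/-, and 0.008 to 0.05 in the other pairs. The labels do not say that a replicate number marks a shared culture, so the block was kept as an alternative only. With it, 4, 6, 4, 5 and 5 genes were called in the other comparisons, gaining Klf6 for Jarid2-/- minus wild type and Klf4 for Jarid2-/- minus Ezh2-/-. Calls over all probe sets rose too, to 24.3%, 31%, 23.3%, 20.1% and 21.3%, against 19.8%, 26.6%, 18.6%, 15% and 16.8% without the block. Rescaling moved the share of all calls that were higher from 30.7% to 48.4% (quantile) or 48% (medians) in the arrays labelled Jarid2-/- against wild type and from 35.4% to 49.5% or 51.8% in Ezh2-/-. For Jarid2-/- minus Eed-/- it moved from 33.5% to 45.7% or 52.1%, and for Ezh2-/- minus Eed-/- from 33.8% to 45.4% or 55%. Either rescaling acted without changing which Klf genes were called against wild type.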
